A study of Saccharomyces cerevisiae with 13 samples.

Results

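Spermidine was compared with control on 10 of the 13 one-colour Affymetrix yeast arrays of a series on the budding yeast Saccharomyces cerevisiae: the 5 arrays titled SPD against the 5 titled Control. Every gene that had a probe set naming that gene and no other was taken, which gave 5656 genes. The spermidine samples carry the genotype label delta-spe3 delta-fms1 and the treatment spermidine, while the control samples carry the treatment label control and no genotype of their own. The series title speaks of a mutant deficient in polyamines that was given spermidine or spermine. SPE3 encodes spermidine synthase and FMS1 the oxidase that converts spermine back to spermidine, so a strain without both can neither make spermidine nor recover it from spermine. The labels give no dose, treatment time, growth medium or number of separate cultures. The p-values therefore reflect only how the arrays in the fit varied, spermine arrays included, and that variation may be technical.

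Polyamines are small, positively charged molecules built from ornithine and decarboxylated S-adenosylmethionine. They bind RNA and DNA, and spermidine donates the aminobutyl group of hypusine, a modified lysine that translation factor eIF5A needs. Their synthesis draws on the methionine cycle, and yeast regulates it through antizyme, a protein inhibitor of ornithine decarboxylase whose translation depends on polyamines. Yeast cells deprived of spermidine grow poorly and resume growth when it is supplied.

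All values below are probe set signals made comparable between arrays by quantile normalization, in order of array number 1 to 5 where 5 are listed, and changes are on the log2 scale, spermidine minus control. Of the 5656 genes, 5102 passed a filter on dim probe sets and were tested, and 554 were not. A gene was called when its limma p-value, adjusted over all 5102 genes, was below 0.05.

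The arrays were checked first. SPE3 gave signals of 0.713, 1.41, 9.12, 6.96 and 11.6 with spermidine, against 3.97, 7.08, 3.99, 4.42 and 5.37 in controls. FMS1 gave 1.66 to 8.5 with spermidine, against 1.02 to 1.90 in controls. Both deleted genes thus lay under the background level on all 10 arrays. That level, the 95th percentile of 19 control probe sets for bacterial and mouse genes, was 17.9 on the spermidine arrays and 16.3 on the control arrays. MET17, which encodes the enzyme that joins sulfide to O-acetylhomoserine and is not named in the labels, was dim in both groups, at 15.9, 27.9, 16.4, 10.9 and 28.4 with spermidine and 40.4, 43.6, 11.8, 6.42 and 3.91 in controls. Of mating type markers, the alpha pheromone gene MF(ALPHA)1 lay at 8463 to 10226 on the spermidine arrays and 8067 to 9591 on the control arrays. Of 7 genes specific to a cells, the pheromone gene MFA2 lay at 33.2 to 102 with spermidine and 17.6 to 144 in controls, the pheromone exporter gene STE6 at 21.1 to 30.2 with spermidine and 22.8 to 26.0 in controls, and the other 5 at 2.52 to 43.2 with spermidine and 3.80 to 33.6 in controls. Ratios of 3′ to 5′ probe sets of ACT1, a sign of RNA integrity, spanned 1.54 to 1.82 with spermidine and 1.55 to 1.97 in controls. Those of SRB4 spanned 2.33 to 4.78 with spermidine and 1.82 to 2.81 in controls, and those of SPT15 2.37 to 3.52 with spermidine and 2.64 to 4.36 in controls.

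Some arrays stood apart within their group. Across tested genes, controls 2 and 3 correlated with each other at r = 0.977 and with controls 1, 4 and 5 at 0.932 to 0.942, while controls 1, 4 and 5 correlated among themselves at 0.969 to 0.982. Spermidine 4 correlated with the other spermidine arrays at 0.939 to 0.969, and those others among themselves at 0.963 to 0.984. Among those others, spermidine 2 and 3 correlated at 0.980 and spermidine 1 and 5 at 0.984. Between these pairs the values were lower, at 0.963 to 0.969, so spermidine 2 and 3 also stood apart. These are descriptions over genes of shared arrays, not tests. Of the 291 genes that rose at least 2-fold, 139 had their highest signal on spermidine 4, and 26 were there at least 2-fold above every other spermidine array. Of the 259 that fell at least 2-fold, 101 had their lowest signal on spermidine 3. Where leaving out controls 2 and 3, or spermidine 4, ended the call of a named gene, this is given beside it. Against controls 2 and 3 alone, 15 named genes also lost their call, as is said beside them.

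Spermidine was accompanied by a broad change in transcript levels. Of 5102 genes tested, 1662 were called, or 32.6%. 911 were higher (17.9%) and 751 lower (14.7%). At least 2-fold changes were found in 291 genes upward (5.7%) and 259 downward (5.08%), at least 4-fold changes in 61 and 60, and at least 8-fold changes in 25 and 11. All 5 spermidine arrays lay above all 5 control arrays for 718 genes (14.1%), of which 688 were called, and below them for 479 genes (9.39%), of which 461 were called. The median change of all genes tested was 0.02, so that the list medians below can be read against a centre near 0. Where a list's shares lie near 17.9% and 14.7%, its counts are a description only. Without controls 2 and 3, 693 of the 911 genes called higher and 558 of the 751 called lower were still called. Of those changed by at least 2-fold, 280 of the 291 and 228 of the 259 were still called. None of the called genes changed sign. Probe sets outside the 1-gene set moved too: of 281 naming several genes, 43 were higher (15.3%) and 32 lower (11.4%), and of 1012 naming none, 94 were higher (9.29%) and 160 lower (15.8%).

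**Figure D1:**
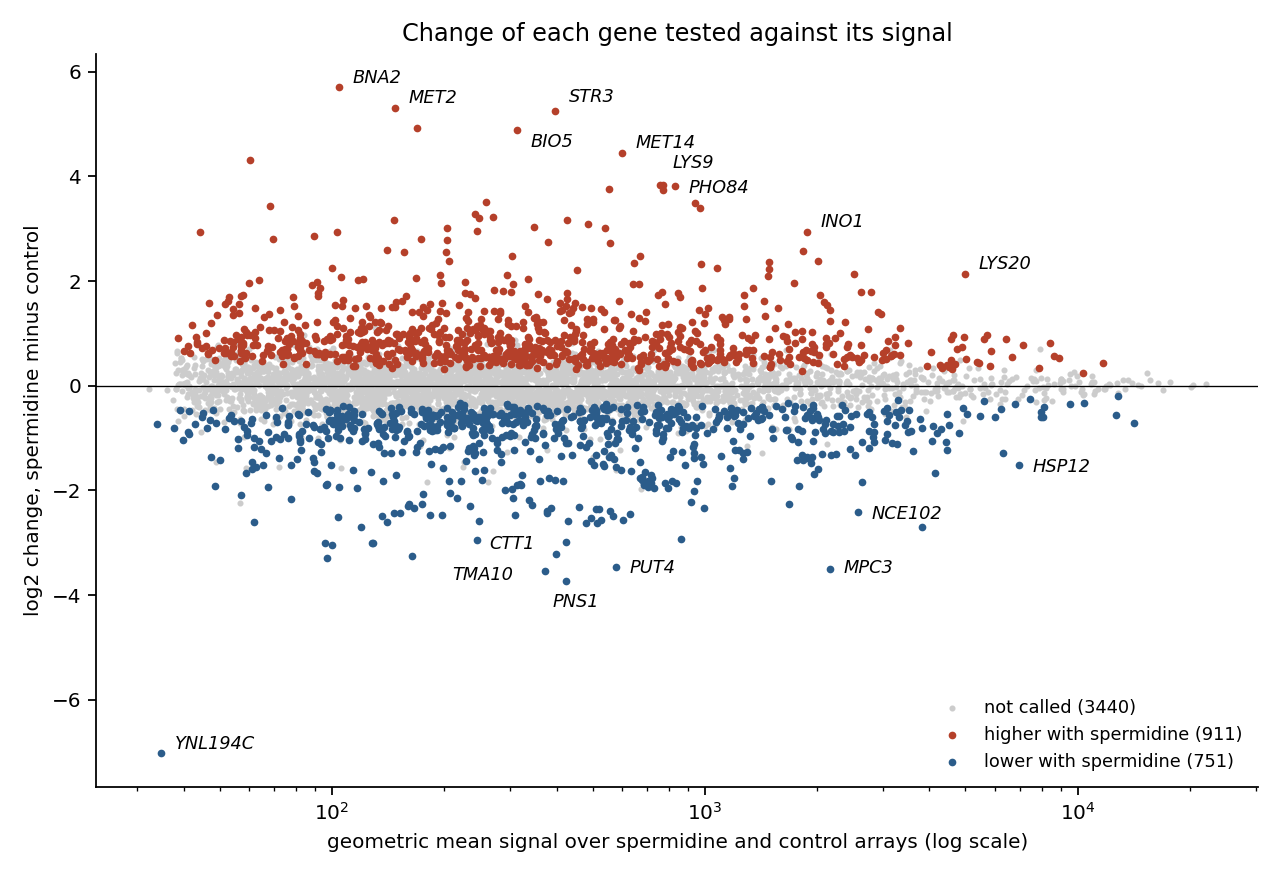
Change of every gene tested (vertical axis, log2, spermidine minus control) against its geometric mean signal over the 10 arrays (horizontal axis, log scale). Red points are the 911 genes called higher, blue the 751 called lower and grey the 3440 not called; biotin, methionine, lysine and NAD synthesis genes lie at the top, and YNL194C stands alone at the bottom.

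The most uniform rises came from biosynthesis. BIO4, dethiobiotin synthetase, had signals of 2872, 3137, 2858, 2624 and 2673 with spermidine, against 200.5, 218, 255, 153 and 246 in controls. LYS9, the saccharopine reductase of lysine synthesis, stood at 2146, 2529, 3873, 3041 and 2956 with spermidine, against 186, 183, 209, 197 and 232 in controls. In both, the lowest spermidine array was several times the highest control. LYS20, homocitrate synthase, had 11217, 9673, 11287, 10004 and 10311 with spermidine, against 2813, 2247, 2437, 2033 and 2427 in controls, a change of 2.14 ± 0.10 (SE, adjusted p = 2.15e-09). The remaining genes with the smallest p among those that rose were BIO5, LYS1, SIL1, CTP1 and DFR1. CTP1, the mitochondrial citrate carrier, was at 1490.1, 1568, 2037, 1264 and 1440.5 with spermidine, against 189, 208, 169, 217 and 170.2 in controls (3.02 ± 0.15 SE, adjusted p = 3.82e-09). DFR1, dihydrofolate reductase, was at 428, 521, 458, 527 and 440.3 with spermidine, against 97.2, 81.6, 78.8, 90.1 and 105 in controls (2.39 ± 0.13 SE, adjusted p = 8.49e-09). Neither gene had a spermidine array within the control range.

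Among falls, the smallest p belonged to MPC3, the pyruvate carrier subunit used in respiring cells, with 1012, 735, 556, 462 and 585 on the spermidine arrays, against 6419, 10550.4, 9801, 5864 and 5332 on the control arrays (-3.50 ± 0.24 SE, adjusted p = 1.44e-07). 4 of the next 7 were small nucleolar RNA genes, SNR3, SNR11, SNR35 and SNR37, whose products guide pseudouridylation of ribosomal RNA. PNS1, a membrane protein related to choline transporters, had 222, 103, 88.3, 126 and 84.8 with spermidine, against 1464, 2785, 2118, 974 and 1051 in controls (-3.73 ± 0.32 SE, adjusted p = 1.42e-06). NCE102, an eisosome protein of the plasma membrane, had 1190.4, 927, 833, 1710.2 and 1083 with spermidine, against 5704, 7408, 7304, 4514 and 5389 in controls (-2.42 ± 0.21 SE, adjusted p = 1.42e-06). Controls 2 and 3 were the highest for MPC3, PNS1 and NCE102, and the groups stayed apart with or without them. PPT2, which attaches phosphopantetheine to the mitochondrial acyl carrier protein, changed less but tightly, with 47.1, 55.9, 61.0, 63.6 and 67.8 on spermidine arrays, against 169, 158, 175, 183 and 157 on controls (-1.52 ± 0.13 SE, adjusted p = 1.64e-06).

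**Figure D2:**
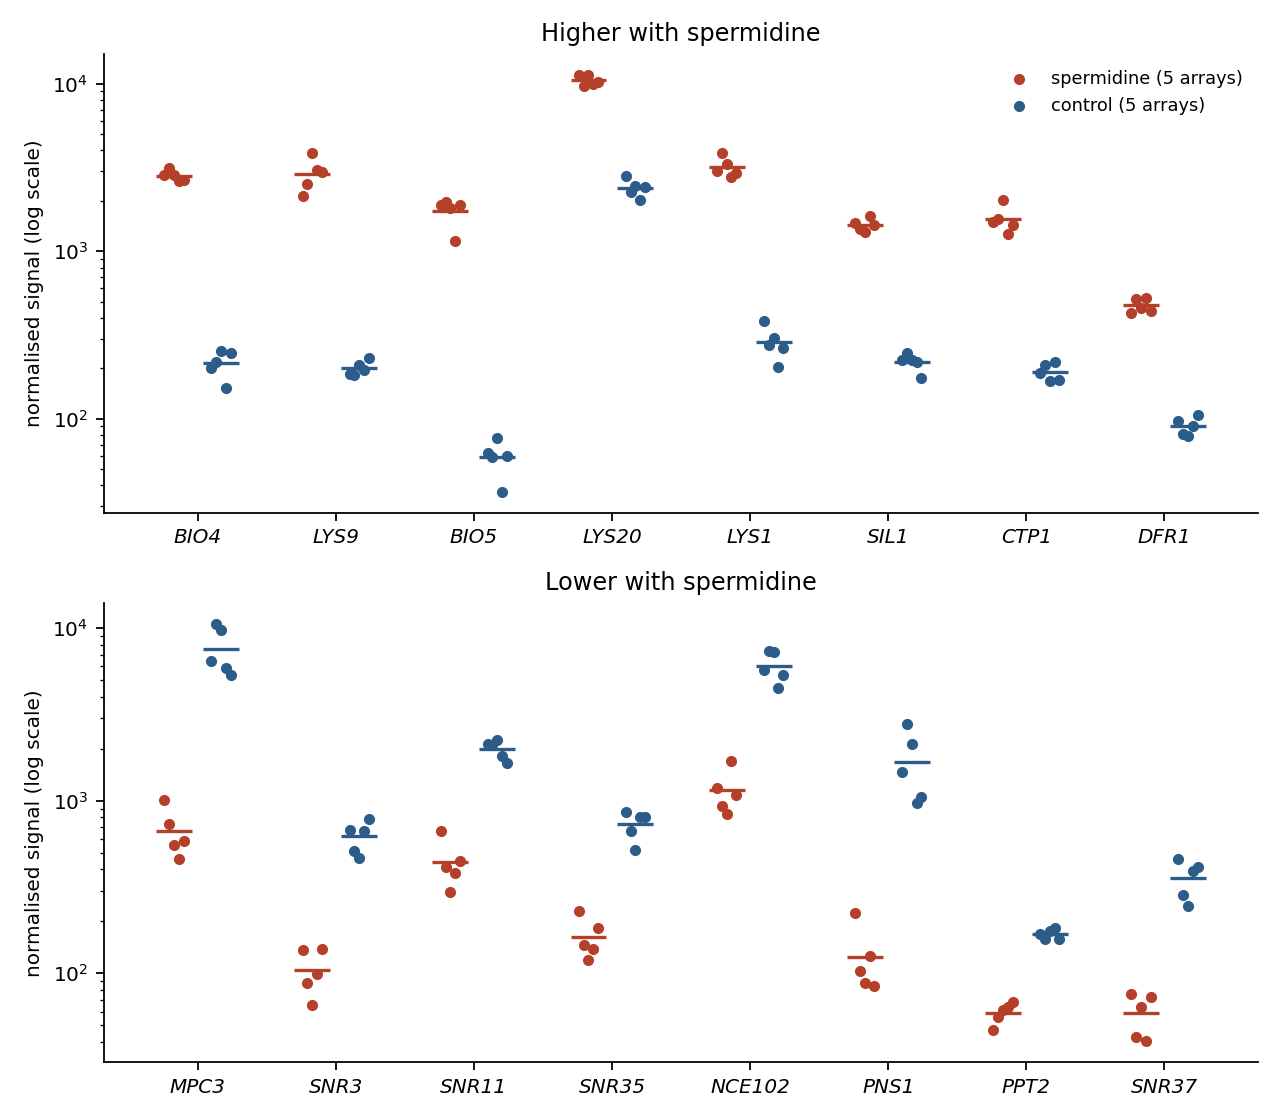
Normalised signal (log scale) of the 8 genes called higher and the 8 called lower with the smallest p, on each of the 5 spermidine arrays (red, left of each gene) and the 5 control arrays (blue, right); bars are group means. None of these 16 genes has overlapping groups.

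Genes of sulfate uptake and reduction lay on average far above the control mean on every spermidine array. Yeast takes up sulfate through SUL1 and SUL2, activates it with MET3 and MET14, reduces it to sulfide, and builds homocysteine, cysteine and methionine from it. All 10 genes of sulfate uptake and reduction were higher, each by at least 2-fold and without overlap, with changes of 2.48 to 4.45 and a median of 3.29. MET14, adenylylsulfate kinase, had 2739.9, 2081, 1754, 8067 and 2172 with spermidine, against 148, 112, 115, 147 and 125 in controls. MET3, ATP sulfurylase, had 2191, 1304, 1046, 6195 and 1856 with spermidine, against 147, 189, 176, 119 and 130.0 in controls. MET10, a sulfite reductase subunit, had 722, 547, 599.9, 2982 and 725 with spermidine, against 87.3, 71.8, 77.2, 68.1 and 79.8 in controls. Spermidine 4 was the highest array for all 3 genes, and the other 4 spermidine arrays still lay far above the controls. SUL1, a sulfate permease, was the extreme case, at 219.7, 72.9, 73.5, 4764 and 248 with spermidine, against 16.4, 15.4, 8.83, 13.6 and 15.1 in controls, whose mean was at background, and the rise was at least 16.5-fold, or at least 8.04-fold without spermidine 4. Without spermidine 4, all 9 members then tested were still called, with a median of 2.79, and MET14, MET3 and MET10 changed by 4.09, 3.37 and 3.08.

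Downstream of sulfide, 5 of 9 tested genes of homocysteine, cysteine and methionine synthesis were higher and none was lower (median 0.90). MET2, the homoserine acetyltransferase that supplies the acceptor for sulfide, had 646, 789, 634, 3811 and 570.5 with spermidine, against 20.9, 37.9, 48.5, 13.3 and 14 in controls. STR3, which releases homocysteine from cystathionine, had 1410.4, 2665, 2521, 5844 and 1599 with spermidine, against 50.6, 69.1, 98.0, 52.4 and 61.6 in controls. Their changes were 5.31 and 5.25, and 4.80 and 4.95 without spermidine 4. MET13, methylenetetrahydrofolate reductase (1.87 ± 0.20 SE, adjusted p = 8.01e-06), and MET6, methionine synthase (1.80 ± 0.23 SE, adjusted p = 5.03e-05), rose less, and their spermidine 4 signals of 3784 and 6571 were closer to the others. Of the regulators, MET28, a component of the activator of these genes, rose by 2.55 and the ubiquitin ligase subunit gene MET30 by 0.98, while MET31 fell by 0.72. For MET30 and MET31 the groups overlapped, and neither was called against controls 2 and 3 alone (adjusted p = 0.198 and 0.0713).

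The S-adenosylmethionine cycle and its uptake had 6 of 8 genes higher and none lower (median 0.55). The permease genes led: MMP1, for S-methylmethionine, had 612, 1064, 952, 1312 and 467 with spermidine, against 134, 55.2, 63.6, 107 and 106 in controls. SAM3, for S-adenosylmethionine, had 4877, 4888, 4716, 7376 and 4849.5 with spermidine, against 1749, 926, 1609.8, 656 and 1446 in controls. MHT1, which makes methionine from S-methylmethionine and homocysteine, had 167 to 197 on 4 spermidine arrays and 501 on spermidine 4, against 15.9 to 27.0 in controls (3.44 ± 0.30 SE, adjusted p = 1.42e-06). SAM2, an S-adenosylmethionine synthetase, changed by 0.58 without overlap. None of the 5 genes that recover methionine from methylthioadenosine, the by-product of spermidine synthesis, was called. MEU1, methylthioadenosine phosphorylase, had 777 to 1081 with spermidine, against 729.5 to 1510.3 in controls (-0.22 ± 0.21 SE, adjusted p = 0.461).

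**Figure D3:**
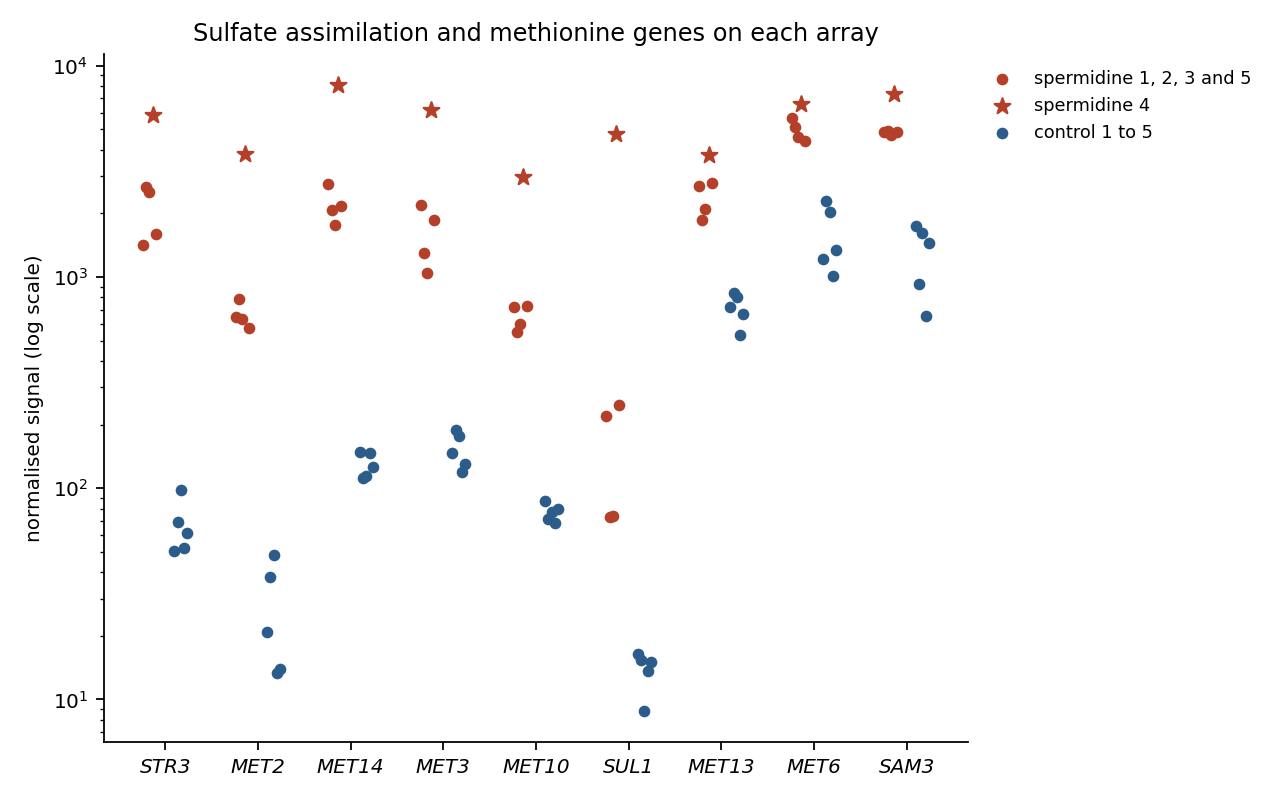
Normalised signal (log scale) of 9 sulfate assimilation, methionine and S-adenosylmethionine uptake genes on each spermidine array (red, left; star, spermidine 4) and each control array (blue, right). Spermidine 4 is the highest spermidine array for all 9 genes, and the other spermidine arrays lie above the controls.

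Polyamine genes were called about as often as genes at large (32.6%): 1 of 4 for synthesis, oxidation and antizyme and 3 of 10 for transport. SPE2, S-adenosylmethionine decarboxylase, was the only tested member of the synthesis, oxidation and antizyme list to be called, of 4: it had 640.0, 839.9, 716, 455 and 442 with spermidine, against 1128, 1026, 1167, 1109.7 and 874 in controls (-0.82 ± 0.18 SE, adjusted p = 0.00296), and the highest spermidine array lay below the lowest control. SPE1, ornithine decarboxylase, had 749, 1079.9, 1017, 573 and 982 with spermidine, against 884, 776, 1065, 767 and 850.0 in controls (-0.01 ± 0.18 SE, adjusted p = 0.975). SPE4, spermine synthase, changed by -0.02 ± 0.19 (SE, adjusted p = 0.939), and OAZ1, antizyme, by 0.35 ± 0.17 (SE, adjusted p = 0.124); in these 3 genes the groups overlapped. Among 10 transport genes 2 were higher and 1 lower (median 0.08). The counts were 3 and 1 without controls 2 and 3 (median 0.46), and 1 and 3 against controls 2 and 3 alone (median -0.16). TPO5, which exports polyamines by way of the Golgi, had 624, 542, 484, 592 and 576 with spermidine, against 228, 219.9, 305, 238 and 219.9 in controls (1.22 ± 0.14 SE, adjusted p = 1.54e-05). TPO2, a plasma membrane polyamine exporter, went the other way, with 1156, 1929, 1869, 824 and 804 on spermidine arrays, against 2532, 3026, 2444, 2844 and 2172 on controls (-1.08 ± 0.25 SE, adjusted p = 0.00386). PTK1, a kinase that promotes polyamine uptake, rose by 0.58 with overlap and was not called against controls 2 and 3 alone (adjusted p = 0.173).

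The eIF5A genes changed little in size. HYP2, the main eIF5A gene of aerobic cells, had 12391, 12391, 11798, 11733 and 11641 with spermidine, against 14456, 12809.5, 13489, 13489 and 14925 in controls, a fall of 0.20 that was called (adjusted p = 0.0387) but missed the threshold in 13 of 23 alternative analyses. These included the fit against controls 2 and 3 alone (-0.13, adjusted p = 0.342) and that without spermidine 4 (adjusted p = 0.0534). ANB1, its low-oxygen copy, changed by -0.38 ± 0.31 (SE, adjusted p = 0.359). DYS1, deoxyhypusine synthase, changed by -0.43 ± 0.20 (SE, adjusted p = 0.114) and LIA1, deoxyhypusine hydroxylase, by 0.43 ± 0.20 (SE, adjusted p = 0.125). For the last 3 genes the groups overlapped. Leaving out 1 array made a call of DYS1 (-0.59, adjusted p = 0.0185, without spermidine 2), LIA1 (0.61, adjusted p = 0.0186, without spermidine 4) and OAZ1 (0.46, adjusted p = 0.0393, without spermidine 2); LIA1 was also called against controls 2 and 3 alone (0.76, adjusted p = 0.0387).

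Vitamin and cofactor synthesis rose in a few pathways and not in others. All 6 genes of biotin synthesis and uptake were higher (median 3.16), 5 of them at least 2-fold. BIO5, the carrier of the biotin precursor 7-keto-8-aminopelargonate, had 1884, 1958, 1803, 1159 and 1886 with spermidine, against 62.5, 59.4, 76.7, 36.6 and 59.6 in controls. BIO3, the aminotransferase of the next step, had 3006, 3422, 3362, 2336 and 2659 with spermidine, against 243, 243, 278, 87.0 and 246 in controls. BIO2, biotin synthase, had 4130.0, 4649, 4632, 3879.6 and 5127 with spermidine, against 1120.1, 785, 781, 331 and 1052 in controls. Control 4 was the lowest control for each of these, and spermidine 4, unlike in the sulfur genes, was the lowest spermidine array.

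NAD synthesis from tryptophan had 6 of 7 tested genes higher, all at least 2-fold (median 1.76). BNA2, the tryptophan dioxygenase that opens the pathway, had 708, 706, 653, 1003 and 748 with spermidine, against 5.85, 42.5, 42.6, 4.75 and 12.7 in controls. The control mean was at background, with controls 2 and 3 above it, and against that background the rise was at least 46.4-fold. The fitted change was 5.70, or 6.74 without controls 2 and 3 and 4.15 against those 2 alone. BNA4, kynurenine monooxygenase, had 422, 424, 442, 464 and 408 with spermidine, against 124, 138, 125, 131 and 121 in controls (1.76 ± 0.14 SE, adjusted p = 7.59e-07). BNA1, hydroxyanthranilate dioxygenase, rose by 1.96 (2705 to 4317 with spermidine, against 747 to 1211 in controls). BNA3, kynurenine aminotransferase, rose by 2.21 with spermidine 4 at 2582 and the other spermidine arrays at 670.0 to 850.5.

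Of 11 NAD salvage genes 2 were higher and 2 lower, close to the 17.9% and 14.7% of all genes, or 3 and 0 without controls 2 and 3. URH1, a nucleosidase that also cleaves nicotinamide riboside, had 585, 588, 645, 614 and 639.5 with spermidine, against 122, 144, 120.4, 200.4 and 132 in controls (2.12 ± 0.16 SE, adjusted p = 3.06e-07). YEF1, an NAD kinase, rose by 1.57. PNC1, nicotinamidase, had 3639.6, 2035, 1777, 4744 and 3304 with spermidine, against 5308, 10955, 10955, 4432 and 5272 in controls, a fall of 1.23 with overlap that was not called without controls 2 and 3 (-0.78, adjusted p = 0.0546). NMA1, nicotinamide mononucleotide adenylyltransferase, fell by 0.61 and likewise was not called without them (adjusted p = 0.0529).

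Of 11 thiamine genes, 1 was higher and 2 lower (median 0.01). PHO3, a phosphatase that frees thiamine from its phosphates, had 407, 395, 509, 112 and 615 with spermidine, against 1608, 751, 967, 1935 and 1779 in controls (-1.90 ± 0.43 SE, adjusted p = 0.00356), spermidine 4 being the lowest; against controls 2 and 3 alone it was not called (-1.26, adjusted p = 0.103). THI20, a hydroxymethylpyrimidine kinase, rose by 1.56 without overlap. Heme synthesis had 2 genes higher and 3 lower of 8, with HEM13, coproporphyrinogen oxidase (1.2 ± 0.23 SE, adjusted p = 0.0012), and HEM14, protoporphyrinogen oxidase (1.11 ± 0.12 SE, adjusted p = 8.27e-06), as the risers.

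Lysine and arginine synthesis rose among the amino acid pathways. 7 of 8 lysine genes were higher, all at least 2-fold and without overlap (median 2.20). LYS1, which makes lysine from saccharopine, had 3016, 3873, 3319.7, 2787 and 2952 with spermidine, against 385, 274, 303, 204 and 264 in controls. LYS4, homoaconitase, had 1984, 2976, 2603, 1449 and 2274 with spermidine, against 279, 444, 479, 561 and 466 in controls. LYS2, aminoadipate reductase, had 1960.0 to 2979 with spermidine, against 474 to 544 in controls (2.25 ± 0.14 SE, adjusted p = 4.04e-08). The mean difference of the list from the control mean was 2.05 to 2.42 on single spermidine arrays and -0.10 to 0.07 on single control arrays, so single arrays differed little within each group.

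6 of 8 arginine genes were higher, all at least 2-fold (median 1.52). ARG1, argininosuccinate synthetase, had 2885, 3219, 3232, 2861 and 3082 with spermidine, against 709.9, 747, 846, 548 and 751 in controls (2.10 ± 0.15 SE, adjusted p = 2.33e-07). ARG4, argininosuccinate lyase, had 4097, 4130.0, 4041, 6812 and 4391 with spermidine, against 1333, 591, 879, 623 and 1227 in controls (2.38 ± 0.23 SE, adjusted p = 3.67e-06). ARG3, which uses ornithine, the precursor that polyamines share, rose by 1.69 and ARG2, acetylglutamate synthase, by 1.55. On the breakdown side CAR2, ornithine aminotransferase, fell by 0.76, with 2146 to 4136 on spermidine arrays, against 4587 to 5879 on controls; it was not called against controls 2 and 3 alone (adjusted p = 0.0632).

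Branched-chain amino acid synthesis had 8 of 12 genes higher and none lower, by less (median 0.57). LEU4, isopropylmalate synthase, had 4908, 4865, 4543, 4503 and 4952 with spermidine, against 2218, 1678, 1004, 1816 and 2748 in controls (1.40 ± 0.20 SE, adjusted p = 0.000117), and LEU1, the next enzyme, rose by 1.04. Histidine synthesis had 2 of 7 genes higher and 1 lower (median -0.08), HIS1 changing by 0.85. Aromatic amino acid synthesis had 5 of 13 higher and 1 lower, with ARO2, chorismate synthase, at 0.98 and TRP1 at -0.63. The serine isoenzymes moved apart: SER33 had 1220.1, 1311, 1222, 2358 and 1264 with spermidine, against 446, 521, 395, 366 and 358 in controls (1.78 ± 0.20 SE, adjusted p = 1.42e-05). SER3, its paralog, had 146, 250.1, 339, 131 and 72.7 with spermidine, against 562, 953, 789.8, 1208 and 934 in controls (-2.39 ± 0.36 SE, adjusted p = 0.000151). Neither gene had overlapping groups.

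Amino acid permeases had 4 of 17 genes higher and 3 lower, shares near those of all genes (17.9% and 14.7%). PUT4, the proline permease, had 231, 157, 127, 138 and 255 with spermidine, against 1009.8, 4097, 5241, 1104 and 1068 in controls, highest on controls 2 and 3, and changed by -3.45, or -2.60 without them. The methionine permease genes MUP1 (1.21 ± 0.15 SE, adjusted p = 2.79e-05) and MUP3 (1.63 ± 0.42 SE, adjusted p = 0.00885) and SSY1, the plasma membrane amino acid sensor (1.73 ± 0.19 SE, adjusted p = 9.38e-06), rose; MUP3 was not called without controls 2 and 3 (adjusted p = 0.0629). In ammonium uptake and nitrogen regulation 7 of 15 genes were higher and none lower, among them GAT1, a GATA activator (1.41 ± 0.23 SE, adjusted p = 0.000312), MEP3, an ammonium permease (1.25 ± 0.17 SE, adjusted p = 6.81e-05), and GDH1, glutamate dehydrogenase (1.09 ± 0.15 SE, adjusted p = 6.78e-05). The Ehrlich pathway of amino acid breakdown had 2 of 7 genes higher and 3 lower (median -0.26). Among the lower were ARO9 and ARO10, which break down aromatic amino acids. ARO9 had 315, 89.6, 135, 531 and 323 with spermidine, against 1385, 1138, 1013, 1203 and 1164 in controls (-2.35 ± 0.38 SE, adjusted p = 0.000273). ARO10 had 121, 40, 37.2, 279 and 56.9 with spermidine, against 359, 481, 439, 404 and 496 in controls (-2.48 ± 0.43 SE, adjusted p = 0.000475). Spermidine 2 and 3 gave the lowest ARO9 and ARO10 signals, and the groups did not overlap.

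4 of 12 pyrimidine genes were lower and none higher (median -0.25), led by both permeases; against controls 2 and 3 alone, or without spermidine 4, 2 were lower. Purine synthesis had 1 of 13 genes higher and 3 lower, or 1 and 0 without controls 2 and 3. FUR4, the uracil permease, had 68.2, 61.1, 118, 32.8 and 61.5 with spermidine, against 392, 308, 355, 363 and 294 in controls (-2.43 ± 0.26 SE, adjusted p = 8.24e-06). FUI1, the uridine permease, had 216, 222, 273, 84.6 and 164 with spermidine, against 649, 616, 476, 614 and 569 in controls (-1.70 ± 0.26 SE, adjusted p = 0.000189). RNR1, the large subunit of ribonucleotide reductase, varied widely, with 397, 1157, 1142, 94.2 and 315 on spermidine arrays, against 1279, 1907, 2104, 1263 and 1278 on controls (-1.81 ± 0.54 SE, adjusted p = 0.0183); without controls 2 and 3 it was not called (adjusted p = 0.0851). HUG1, an inhibitor of the same enzyme, rose by 1.08. Glycine cleavage had 1 of 9 genes higher and 3 lower, or 1 and 1 without controls 2 and 3. GCV1 (-1.70) and GCV2 (-1.36) overlapped and were not called without controls 2 and 3 nor without either of them alone, GCV2 also not without control 4 or any 1 spermidine array. MTD1, a cytosolic one-carbon dehydrogenase, fell by 1.23 without overlap.

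The endoplasmic reticulum changed broadly. Proteins bound for secretion enter it through the SEC61 channel, are folded by Kar2 and its partners and by disulfide isomerases, and leave in COPII vesicles or are destroyed. 14 of 15 chaperone and disulfide genes were higher and none lower (median 1.17), the exception being CNE1, calnexin. SIL1, a nucleotide exchange factor of Kar2, had 1480.0, 1354, 1295, 1625 and 1438 with spermidine, against 226, 246, 223, 219 and 174 in controls (2.73 ± 0.13 SE, adjusted p = 2.59e-09). EUG1, a disulfide isomerase, had 385, 365, 465, 541 and 450.4 with spermidine, against 28.1, 44.5, 67.9, 58.0 and 56.9 in controls (3.16 ± 0.21 SE, adjusted p = 9.03e-08). LHS1, an Hsp70 of this compartment, had 1329, 1243, 1361, 1329 and 1268 with spermidine, against 338, 318, 417, 369 and 275 in controls (1.94 ± 0.13 SE, adjusted p = 9.03e-08). JEM1, a DnaJ-like partner of Kar2, rose by 2.05, and KAR2 itself, named after its values were seen, by 0.78 (8615 to 10877 with spermidine, against 4877 to 6444 in controls). In all 5 genes the groups did not overlap, and no spermidine array lay far from the other spermidine arrays.

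Degradation at this membrane had 8 of 14 genes higher and none lower (median 0.40). DER1, a channel component, had 1107, 838, 797, 1168 and 1128 with spermidine, against 151, 80.7, 128, 138 and 126 in controls (3.03 ± 0.19 SE, adjusted p = 4.25e-08). The ubiquitin ligase gene HRD1 rose by 1.78 and its scaffold USA1 by 1.58. Translocation and glycosylation had 14 of 24 higher and 1 lower (median 0.55), with SEC61 at 1.10 and SPC1, a signal peptidase subunit, at -0.77; SPC1 was not called without controls 2 and 3 (adjusted p = 0.0856). COPII export had 9 of 14 higher and none lower (median 0.56), led by ERV29, a cargo receptor (1.49 ± 0.14 SE, adjusted p = 2.5e-06). HAC1, which encodes the activator of the unfolded protein response, had lower signal, 3659, 3009, 2680.4, 5322 and 3462 with spermidine, against 6464, 5346, 6839.8, 7968 and 6600.5 in controls (-0.90 ± 0.16 SE, adjusted p = 0.00071). The signal of its probe set does not tell spliced from unspliced messenger RNA.

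Lipid genes moved in several directions. INO1, the enzyme that makes inositol phosphate, had 5272, 5272, 4676, 5444 and 5432 with spermidine, against 573, 1058, 962, 484 and 507 in controls (2.94 ± 0.23 SE, adjusted p = 5.21e-07), all spermidine arrays lying within a narrow band. INO2 (0.90) and INO4 (1.03), its activators, and OPI3, a phosphatidylcholine enzyme (0.90), rose as well, and 7 of 18 genes of that list were higher and 1, PIS1, lower (-0.58). Ergosterol synthesis had 3 higher and 7 lower of 23 (median -0.09). The isoenzymes of its controlled step moved apart, HMG2 by 0.98 and HMG1 by -0.74, and ERG5, a desaturase, had 475 to 594 with spermidine, against 1109 to 1518 in controls (-1.36 ± 0.13 SE, adjusted p = 2.5e-06). YPC1, an alkaline ceramidase, had 189, 99.6, 200.5, 146 and 139.7 with spermidine, against 1025, 2047, 2027, 699 and 822 in controls (-2.99 ± 0.33 SE, adjusted p = 1.3e-05), while LCB5, a sphingoid base kinase, rose by 1.06. SPS19, a peroxisomal reductase for unsaturated fatty acids, rose by 2.04.

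Phosphate genes were higher in 6 of 13 cases and lower in 1 (median 0.67). Against controls 2 and 3 alone the counts were again 6 and 1, but the median was 0.09. PHO84, the high-affinity phosphate transporter, had 3982, 2429, 2069, 3998 and 3715 with spermidine, against 241, 219.9, 181, 342 and 167 in controls (3.81 ± 0.44 SE, adjusted p = 1.69e-05). Spermidine 2 and 3 were its lowest spermidine arrays and still far above the controls. PHO89, a sodium-coupled phosphate transporter, rose by 1.45, the regulator PHO4 by 1.42 and GIT1, a permease for glycerophosphoinositol, by 2.80, or 2.18 without control 3, its lowest control. PHM8, a phosphatase, was lower by 1.33 with overlap and was not called without controls 2 and 3 (adjusted p = 0.237), nor without either of them alone or without any 1 of spermidine 1, 2, 3 and 5. VTC3, of the polyphosphate polymerase complex, had 744, 501, 712, 794 and 576 with spermidine, against 256, 183, 144, 216 and 191 in controls (1.75 ± 0.20 SE, adjusted p = 1.97e-05).

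Of 6 zinc genes, 4 were higher and 1 lower (median 0.79). The zinc-responsive activator ZAP1 had 423, 441, 494, 426 and 501 with spermidine, against 179.8, 207, 201, 138 and 156 in controls (1.39 ± 0.16 SE, adjusted p = 1.48e-05). ADH4, an alcohol dehydrogenase gene of that regulon, rose by 1.60 and ZRT3, which releases zinc from the vacuole, by 1.02. ZRT2, the low-affinity zinc transporter, had 934, 985, 815, 778 and 652 with spermidine, against 2126, 1666, 1784, 1524 and 1573 in controls (-1.06 ± 0.13 SE, adjusted p = 4.08e-05). Iron and copper genes were mixed, 4 higher and 8 lower of 23 (median -0.20). FIT2, a cell wall mannoprotein that holds iron carriers, had 222, 154, 182, 151 and 159 with spermidine, against 1133, 873, 1128, 426 and 1063 in controls (-2.34 ± 0.34 SE, adjusted p = 0.000126), with control 4 well below the other controls. FIT3, of the same kind, fell by 1.48, with control 4 at 1298, within the spermidine range of 860.4 to 1499. FET4, a low-affinity iron and copper transporter (1.99 ± 0.23 SE, adjusted p = 1.7e-05), and ATX1, a copper chaperone (1.41 ± 0.30 SE, adjusted p = 0.00233), rose.

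6 of 9 hexose transporter and sensor genes were lower and 1 higher (median -1.02), or 4 and 1 without controls 2 and 3. HXT6 had 2682, 2982, 3073, 1269 and 2294 with spermidine, against 6131, 6944, 5928, 3581 and 5968 in controls (-1.25 ± 0.27 SE, adjusted p = 0.00241). HXT7, a near-identical copy whose probes may share its transcripts, had 1407 to 2624 with spermidine, against 2917 to 6069 in controls. HXT1 fell by 1.10 and HXT5 by 2.05, both with overlap and neither called without controls 2 and 3 (adjusted p = 0.0955 and 0.151; HXT1 also not against controls 2 and 3 alone, adjusted p = 0.0507; HXT5 also not without control 2, control 3, spermidine 2 or spermidine 3 alone), and the sensor gene RGT2 rose by 0.76. Without spermidine 4 the list median was -0.55, with the same counts of 6 and 1. Glycolysis was near 0 (median -0.02 over 18 genes, 1 higher and 2 lower), PFK2, a phosphofructokinase subunit, changing by -0.55.

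Of 10 pentose phosphate genes, 4 were higher and 2 lower (median -0.07), or 3 and 1 without controls 2 and 3. Among the higher were GND1 and ZWF1, whose enzymes make NADPH. GND1, phosphogluconate dehydrogenase, had 3498, 3553, 3377, 3867 and 3581 on spermidine arrays, against 1666, 957, 917, 1699 and 1526 on controls (1.45 ± 0.18 SE, adjusted p = 3.05e-05). ZWF1, glucose-6-phosphate dehydrogenase, rose by 1.34. The lower genes were TKL2 and SOL4. TKL2, a minor transketolase, had 32.9, 35.5, 41.6, 28.5 and 20.2 with spermidine, against 98.2, 1599, 1396, 226 and 51.6 in controls (-3.30 ± 0.87 SE, adjusted p = 0.00962), and SOL4, a lactonase homolog, changed by -1.76. Controls 2 and 3 were the highest for both, and neither was called without them (-1.76, adjusted p = 0.0524, for TKL2 and -0.87, adjusted p = 0.0603, for SOL4). Without control 2 alone TKL2 changed by -2.71, and without control 5 alone by -3.93. GND2, which was not tested, had 59.8 to 129 with spermidine, against 4.48 to 157 in controls. Of 9 glycerol genes, 5 were lower and 1, for the isoenzyme of GPD1, was higher (median -0.46). Without controls 2 and 3 the counts were 3 lower and 1 higher. GPD1, glycerol-3-phosphate dehydrogenase, had 3779, 1103, 1407, 3771 and 2994 with spermidine, against 6676, 10050.5, 9970.0, 5295 and 6210.0 in controls (-1.68 ± 0.33 SE, adjusted p = 0.00134). GPP2, the phosphatase of the next step, changed by -1.29, and GUT2, which oxidises glycerol phosphate, by -1.79 with overlap. ALD6, the cytosolic aldehyde dehydrogenase, had 3026, 357, 996, 1849.5 and 2656 with spermidine, against 5364, 5012, 5458, 3982 and 5287 in controls (-1.84 ± 0.43 SE, adjusted p = 0.00473), with spermidine 2 the lowest array. MDH2, a cytosolic malate dehydrogenase of gluconeogenesis, fell by 1.80 (-1.18 without controls 2 and 3), and LSC2, succinyl-CoA ligase, rose by 1.05.

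17 of 35 nuclear genes of the respiratory complexes were lower and none higher (median -0.37). CYC7, the low-oxygen isoform of cytochrome c, had 38.2, 22.2, 25.7, 44.1 and 46.8 with spermidine, against 139, 436, 486, 177 and 279 in controls (-3.0 ± 0.39 SE, adjusted p = 4.76e-05). CYT1, cytochrome c1, changed by -1.25 with overlap and NDE1, an NADH dehydrogenase, by -1.06. HAP4, the limiting subunit of the activator of these genes, had 365, 729.5, 489, 165 and 297 with spermidine, against 1403, 1724, 1484, 793 and 998 in controls (-1.76 ± 0.35 SE, adjusted p = 0.00149), and ROX1, the repressor of low-oxygen genes, fell by 1.82. None of 5 tested protein genes of the mitochondrial genome was called, the brightest, OLI1, a subunit of ATP synthase, changing by 0.10 ± 0.13 (SE, adjusted p = 0.598).

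Some stress genes were lower, and how many and by how much depended on which controls they were set against. 10 of 26 genes of the general stress list were lower and 1 higher (median -0.91); without controls 2 and 3 the counts were 5 and 1 (median -0.18). The mean of the list differed from the control mean by -1.41 to -0.77 on the spermidine arrays, and by -0.60, 0.88, 0.92, -0.48 and -0.72 on controls 1 to 5. Heat shock proteins had 7 of 23 lower and none higher (median -0.79), or 4 lower without those controls (median -0.19). Trehalose and glycogen genes had 4 of 17 lower, or 1 without them. Catalases, peroxidases and superoxide dismutases had 2 of 23 higher and 3 lower (median -0.02), or 3 and 2 without those controls. Over all 5102 genes tested, 751 were lower (14.7%), or 673 without controls 2 and 3. Without those controls, the shares of these lists that were lower lay near or below that of all genes, so their counts are a description only.

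Several single stress genes fell far enough to be separate from every control. CTT1, cytosolic catalase, had 210.4, 102, 67.3, 159 and 168 with spermidine, against 672, 3739.6, 3061, 657 and 525 in controls; its change was -3.21, or -2.23 without controls 2 and 3 (adjusted p = 0.00609). RTC3, a stress-induced protein, had 329, 290.3, 240.5, 378 and 345 with spermidine, against 1496, 4952, 4311, 1843 and 1293 in controls; its change was -2.93, or -2.29 without them. DDR2 had 2262, 749, 539, 3518 and 2400.5 with spermidine, against 8147, 14072, 14925, 6676 and 7810.0 in controls (-2.70, or -2.32). In each, controls 2 and 3 were the highest arrays. TMA10, a ribosome-associated protein, changed by -3.53 (-2.43 without controls 2 and 3) and BDH2, a butanediol dehydrogenase homolog, by -2.94 (-1.85). ALD3, a cytosolic aldehyde dehydrogenase, changed by -3.01 and was not called without controls 2 and 3 (-1.63, adjusted p = 0.0723). YNR014W, of unknown function, changed by -3.0 (-2.28 without them). HSP12, a membrane-stabilising protein, had 5163, 3132, 2791, 5346 and 4940.2 with spermidine, against 9549.9, 14659, 15199.7, 10748 and 10004 in controls (-1.52 ± 0.21 SE, adjusted p = 7.52e-05). HSP104, the disaggregase, changed by -1.96 (-1.36 without controls 2 and 3) and TPS2, trehalose phosphatase, by -1.40 (-0.85). FES1, a partner of cytosolic Hsp70 (-1.68), and HSP82, a chaperone (-1.02), overlapped and were not called without those controls, HSP82 also not without any 1 of control 2, control 3, control 4 and spermidine 1 to 4. DDR48 went against the list with a rise of 0.82, with overlap, that was 0.19 and not called against controls 2 and 3 alone (adjusted p = 0.32).

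Eisosomes are furrows of the plasma membrane. In the list of their SUR7 family and the HSP30 family 6 of 13 genes were lower and 1 higher (median -0.71). YNL194C, a SUR7 family protein, had 3.98, 2.11, 4.46, 2.89 and 2.44 with spermidine, against 57.4, 2882, 3241, 437 and 42.2 in controls. Spermidine arrays were at background, so the fall was at least 22.2-fold, or at least 5.70-fold without controls 2 and 3, at least 36.0-fold without control 1 and at least 38.9-fold without control 5. FMP45, of the same family, had 133, 148, 102, 116 and 168 with spermidine, against 317, 1849.5, 2143, 502 and 329 in controls (-2.47, or -1.51 without controls 2 and 3). LSP1, a core eisosome protein, fell by 1.32 (-1.03 without them) and YRO2, related to HSP30, by 2.70 (-2.18). In actin patches, where endocytosis starts, 4 of 28 genes were higher and 7 lower (median -0.05). VRP1, verprolin, had 741, 521, 515, 857 and 684 with spermidine, against 2072, 2563, 2754, 1879 and 1917 in controls (-1.76 ± 0.17 SE, adjusted p = 3.32e-06). LAS17, its partner and an activator of actin branching, had 345, 378, 305, 306 and 289 with spermidine, against 929, 799, 883, 662 and 778 in controls (-1.32 ± 0.13 SE, adjusted p = 5.12e-06), while ABP1, an actin-binding protein of the same patches, rose by 0.81.

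**Figure D4:**
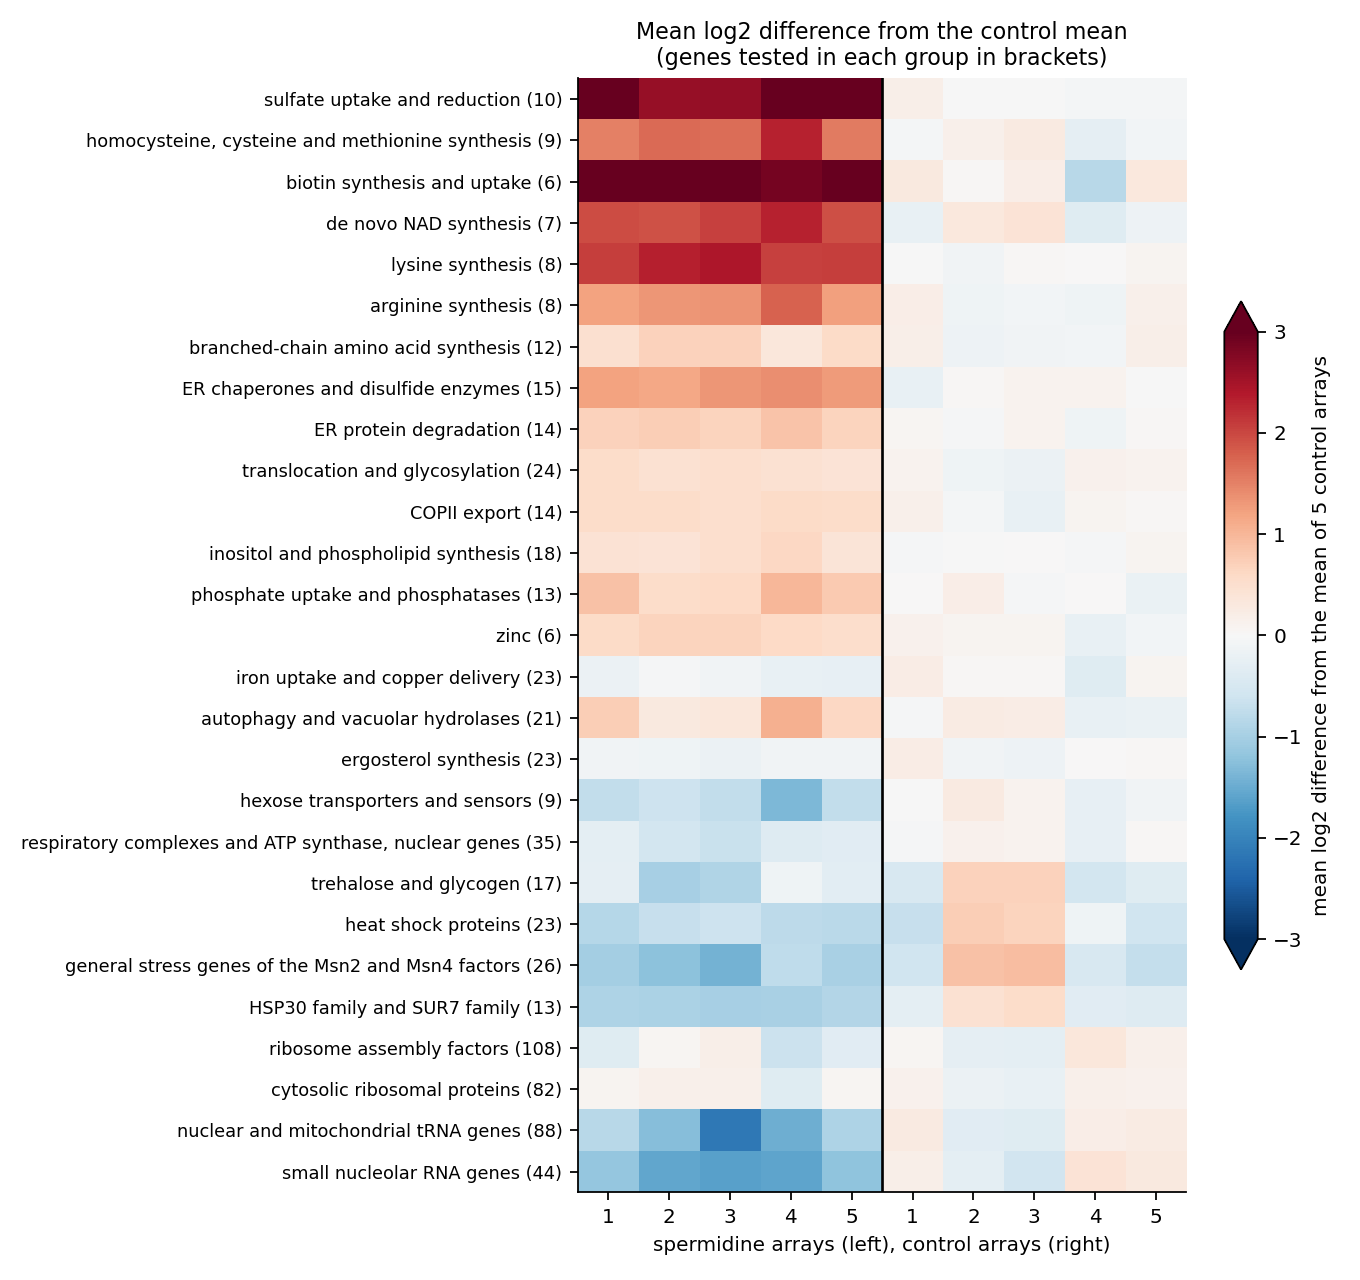
Mean log2 difference of 27 gene groups (rows, number of genes tested in brackets) from the mean of the 5 control arrays, on each spermidine array (left) and each control array (right); red is above and blue below, and colours saturate at 3. Sulfate and biotin genes are high on all 5 spermidine arrays, stress groups are high on controls 2 and 3, and tRNA and small nucleolar RNA genes are low on all spermidine arrays.

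Autophagy genes and vacuolar hydrolases had 9 of 21 genes higher and 1 lower (median 0.46). The counts were 13 and 0 without controls 2 and 3 (median 0.75) and 6 and 3 against controls 2 and 3 alone (median 0.15). AMS1, vacuolar mannosidase, had 931, 507, 492, 1322 and 786 with spermidine, against 63.1, 115, 100.3, 72.0 and 52.9 in controls (3.28 ± 0.33 SE, adjusted p = 4.61e-06), spermidine 2 and 3 being the lowest of the spermidine arrays. ATG13, a regulator of autophagy onset, rose by 1.5, ATG2 by 1.33 and LAP3, a cytosolic peptidase, by 1.25. APE3, a vacuolar aminopeptidase, fell by 0.59 with overlap and was not called without controls 2 and 3 (adjusted p = 0.181), nor without any 1 of control 2, control 3, spermidine 2, spermidine 3 and spermidine 5. Among cyclin genes 5 of 16 were higher and none lower. CLN1, a G1 cyclin, had 230.0, 238, 204, 421 and 248 with spermidine, against 87.7, 79.9, 80.7, 88.5 and 88.9 in controls (1.61 ± 0.18 SE, adjusted p = 1.05e-05), and PCL1, a cyclin of the Pho85 kinase, rose by 1.15; spermidine 4 was the highest for both.

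Mating type genes varied between spermidine arrays. MF(ALPHA)2, a pheromone gene, had 562, 1345, 1204, 80.5 and 480.2 with spermidine, against 165, 123, 127, 142 and 169 in controls (1.83 ± 0.56 SE, adjusted p = 0.0208). SAG1, the alpha agglutinin, had 1843, 3708, 3061, 504 and 1784 with spermidine, against 1009, 779, 678, 553 and 781 in controls (1.27 ± 0.44 SE, adjusted p = 0.0398). HO, the mating type endonuclease gene, had 75.7, 348, 382, 28.7 and 80.8 with spermidine, against 44.2, 21.3, 31.1, 18.9 and 46.8 in controls (1.96 ± 0.63 SE, adjusted p = 0.0265). In all 3, spermidine 2 and 3 were the highest arrays and spermidine 4 was within or below the control range. None of the 3 was called without controls 2 and 3 (adjusted p = 0.0759, 0.0994 and 0.0891), nor without spermidine 2 or without spermidine 3, SAG1 also not without any other 1 array except control 1 and spermidine 4, and HO also not without control 2 or control 4. Against controls 2 and 3 alone none of the 3 was called either. Without spermidine 4 the changes of MF(ALPHA)2, SAG1 and HO were 2.51, 1.74 and 2.46. ASH1, a repressor of HO made in daughter cells, rose by 0.97 without overlap, and STE18, a pheromone signalling subunit, fell by 0.82. Of 16 meiosis and spore genes, 3 were bright enough to test, and SPS1 (0.89) and NDT80 (0.77) were higher; NDT80 was not called without controls 2 and 3.

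Signals of genes for RNAs that are not translated were lower as a class. Small nucleolar RNAs guide chemical changes in ribosomal RNA, spliceosomal RNAs remove introns, and tRNAs bring amino acids to the ribosome. These transcripts are short and mostly lack poly(A) tails. Whether their recovery and labelling differed between the groups was not tested, so the signals may not reflect their levels in the cells. Of 88 tRNA genes, 75 were lower and none higher (median -1.27), of 44 small nucleolar RNA genes 37 lower and none higher (median -1.51), and all 4 spliceosomal RNA genes lower (median -1.36). Over protein-coding genes the median was 0.04, with 910 higher and 631 lower of 4955. The 3 classes supplied 91 of the 259 genes at least 2-fold lower, or 35.1%. Without controls 2 and 3 the small nucleolar RNA median was -1.86 and the tRNA median -1.48. Against controls 2 and 3 alone fewer were called: 38 tRNA genes lower (median -0.86), 26 small nucleolar RNA genes lower and 1 higher (median -1.01), and 1 spliceosomal RNA gene lower (median -0.78).

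SNR3 had 136, 87.4, 65.8, 98.8 and 137 with spermidine, against 674, 511, 466, 668 and 783 in controls (-2.59 ± 0.21 SE, adjusted p = 7.59e-07). SNR11 had 664, 411, 297, 383 and 449 with spermidine, against 2123, 2111, 2257, 1806 and 1645 in controls (-2.21 ± 0.18 SE, adjusted p = 7.59e-07). SNR35 (-2.17 ± 0.19 SE, adjusted p = 1.31e-06), SNR37 (-2.61 ± 0.23 SE, adjusted p = 1.9e-06), SNR63 (-2.50 ± 0.32 SE, adjusted p = 4.49e-05) and SNR34 (-2.26 ± 0.33 SE, adjusted p = 0.000122) fell likewise. Spermidine 3 was the lowest array for SNR3, SNR11 and SNR35, and each of these 6 genes had separate groups. SNR19, which encodes U1, had 152, 96.8, 100.5, 112 and 138 with spermidine, against 403, 523, 451, 388 and 336 in controls (-1.82 ± 0.17 SE, adjusted p = 2.39e-06). SNR14, for U4, fell by 0.85 and SNR6, for U6, by 1.11, the U6 groups overlapping; neither was called against controls 2 and 3 alone (adjusted p = 0.0778 and 0.0701).

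Copies of a tRNA gene are nearly identical, so their signals cannot be assigned to 1 copy. The tRNA gene YNCD0011W had 352, 183, 91.6, 216 and 216 with spermidine, against 1243, 1023, 1028, 1374 and 1332 in controls (-2.62 ± 0.28 SE, adjusted p = 8.01e-06). YNCB0015W had 432, 195, 97.3, 254 and 456 with spermidine, against 1482, 1257, 1279, 1809.8 and 1559.6 in controls (-2.56 ± 0.34 SE, adjusted p = 5.48e-05). Spermidine 3 was lowest in both, and the mean over all tRNA genes differed from the control mean by -0.84, -1.27, -2.15, -1.45 and -0.93 on spermidine 1 to 5, against -0.37 to 0.27 on single controls.

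**Figure D5:**
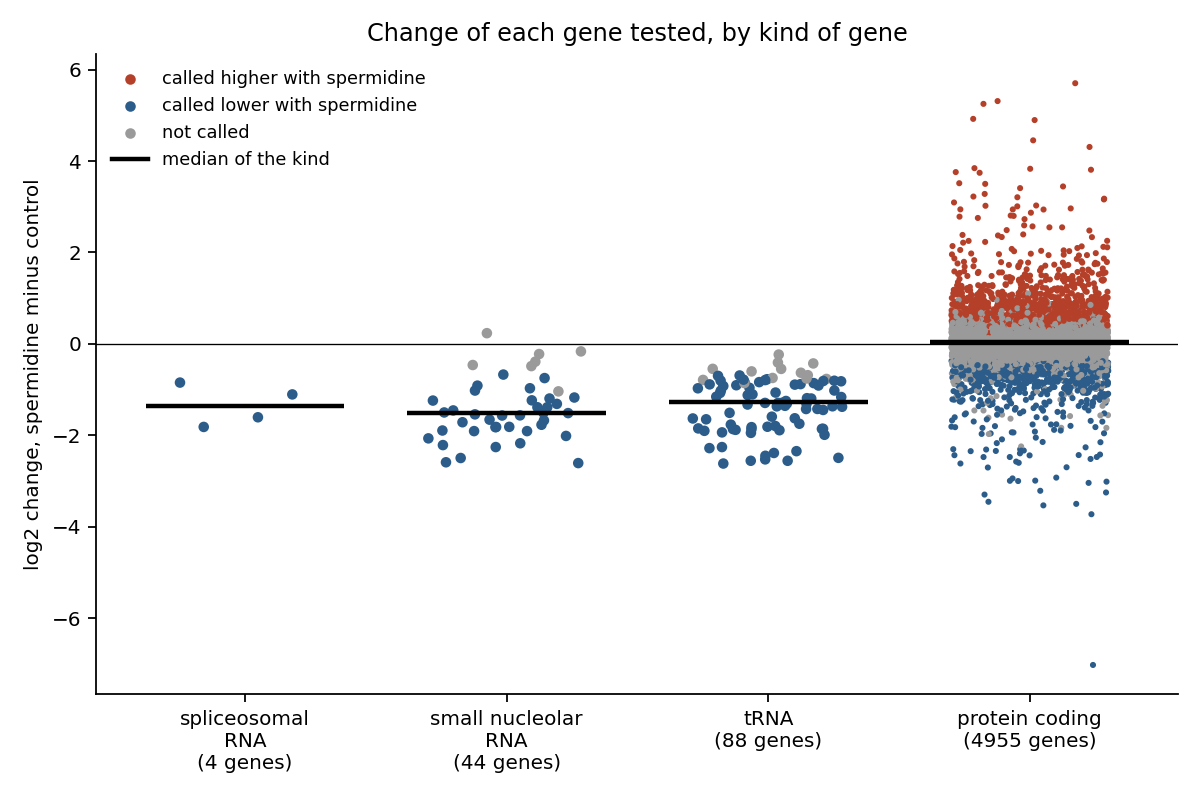
Log2 change (spermidine minus control) of each gene tested, by kind of gene, with the median of each kind as a bar; red and blue points were called and grey points were not. Nearly all tRNA, small nucleolar RNA and spliceosomal RNA genes lie below 0, while protein-coding genes spread to both sides with a median of 0.04.

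The protein side of the translation machinery changed far less. 1 of 82 cytosolic ribosomal protein genes was higher and 5 lower (median 0.03), RPL3 changing by -0.55 without overlap and RPS22B by 0.78 with overlap; RPS22B was not called without controls 2 and 3 (adjusted p = 0.171), nor without any 1 of control 2, control 3 and spermidine 1, 2, 3 and 5. Ribosome assembly factors had 17 of 108 lower and none higher (median -0.21), which as a share is close to the 14.7% of all genes. Against controls 2 and 3 alone 10 were higher and 2 lower (median 0.02). Their mean differed between spermidine arrays, -0.36, 0.07, 0.18, -0.65 and -0.34, against -0.29 to 0.33 on single controls. BMS1, a GTPase of small subunit assembly, fell by 1.09 and the polymerase I subunit gene RPA135 by 0.89, both with overlap and neither called against controls 2 and 3 alone (adjusted p = 0.0674 and 0.109). Mitochondrial ribosomal proteins had 8 of 70 higher and 2 lower, and the proteasome 3 of 34 higher and 1 lower, that one being RPN4, the activator of proteasome genes (-1.0 ± 0.26 SE, adjusted p = 0.00962).

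Some of the largest changes lay in neighbouring genes. In the reference gene order, 8 pairs of neighbours were both called with at least 4-fold changes. BNA2 overlaps YJR079W, an uncharacterised reading frame, which had 965, 987, 732, 1149.7 and 871 with spermidine, against 17.2, 58.3, 50.2, 20.5 and 26.3 in controls, and transcripts of the pair cannot be told apart where they overlap. BIO3, BIO4 and BIO5 lie side by side, as do MHT1 and MMP1, whose values are given above. YJR154W, of unknown function, had 621, 520.3, 561, 464 and 513 with spermidine, against 106, 82.3, 99.5, 32.6 and 98.4 in controls (2.78 ± 0.27 SE, adjusted p = 3.47e-06). Its neighbour AAD10, a putative aryl-alcohol dehydrogenase, had 995, 1017, 1235, 742 and 994 with spermidine, against 192, 182, 193, 52.5 and 185 in controls (2.75 ± 0.32 SE, adjusted p = 1.97e-05). Control 4 was the lowest array in both. YNL195C, beside YNL194C, changed by -2.52 (-1.12 and not called without controls 2 and 3), and SUE1, a mitochondrial protein beside NCE102, changed by -2.44 ± 0.52 (SE, adjusted p = 0.00249), or -1.51 without those controls. In the eighth pair, LYS2 and TKL2, the changes ran in opposite directions. At a threshold of 2-fold there were 71 such pairs, 49 of them in the same direction. Of all genes tested, 5.7% rose and 5.08% fell by at least 2-fold. How many such pairs would arise by chance was not worked out, so these counts do not show clustering.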

How the data were processed

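Labelled RNA of 13 samples was measured on 1-colour Affymetrix yeast arrays. Per the submitters' processing notes, the authors summarised the probes with MAS5, and the deposited value of a probe set is an intensity on a linear scale, 1 per array. Growth followed a standard protocol and total RNA came from a Qiagen RNeasy kit, per the labels; the arrays' number limits precision. Of 9335 probe sets, 6504 named 1 gene in the platform annotation, and all of those matched the RefSeq gene table.

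Intensities were put on the log2 scale and quantile normalised over all 13 arrays, spermine arrays included. Probe sets with a mean in the dimmest 25% (signal under 37.8) were left out, and the brightest probe set stood for a gene. Among 250 genes with several tested probe sets, 0 had sets called in opposite directions. limma 3.58.1 in R 4.3.3 (lmFit, eBayes with an intensity trend) gave spermidine minus control, with Benjamini-Hochberg adjustment over 5102 genes and a threshold of 0.05. The fit held all 13 arrays, so the spermine arrays entered the estimate of spread behind each SE and p-value. With the spermidine and control arrays only, 886 genes were higher and 708 lower. The procedure was tested on simulated data. Their values were drawn independently for each array, so that test does not cover variation that arrays share. Genes at background in 1 group have a fold written "at least", from the mean log2 signal against the background level of the other group.

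The text names the 12 largest rises and falls without overlap among genes above the median level, the 8 genes called each way with the smallest p, up to 4 called members of each list with those called against its direction, polyamine and eIF5A genes and 6 neighbouring pairs; MFA2, STE6, KAR2, the pairs NCE102 with SUE1 and LYS2 with TKL2, and the untested genes of the closing section were chosen after their values were seen. Members and lists were chosen with earlier results of these data known, so no list's direction is independent evidence. Alternatives were another scaling, pseudocounts, filters, arrays in the fit, array weights, the replicate block and left-out arrays. Promoter sequences were not analysed here.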

Additional observations from a re-analysis of the deposited data

Results flagged for a closer look

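In 28 of 392 pairs of a named gene and a group of 5 arrays, 1 array lay far from the other 4 by Dixon's test, and chance flags about 1 in 20 groups.

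Most of these values came from spermidine 4. It was the highest spermidine array for MET2 (3811), MET10 (2982), MET28 (1177), MHT1 (501), SAM3 (7376), BNA3 (2582), ARG4 (6812), SER33 (2358), ERG5 (594), RGT2 (71.0), CLN1 (421) and PCL1 (596). These hold 5 genes of sulfur and methionine metabolism, an NAD gene, an arginine and a serine gene, a sterol gene, a glucose sensor gene and a pair of cyclin genes. It was the lowest spermidine array for BIO5 (1159), the biotin precursor carrier, PHO3 (112), the thiamine phosphate phosphatase, and MEP3 (264), the ammonium permease. Spermidine 3 was the lowest for SEC61 (3821), the channel of the endoplasmic reticulum, and INO1 (4676), of inositol synthesis.

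Among controls, control 4 was the lowest for BIO3 (87.0), ANB1 (132), FIT2 (426), FIT3 (1298), HXT6 (3581), ALD6 (3982), YJR154W (32.6) and AAD10 (52.5). These take in biotin, iron, hexose and aldehyde genes and the neighbouring pair YJR154W and AAD10. Control 3 was the highest for TPO5 (305) and the lowest for GIT1 (4.69), and control 2 was the lowest for DER1 (80.7). The part that single arrays had in these results was not tested beyond the values without them.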

How the results depend on the processing

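Over the other normalizations, filters, pseudocounts, fits and left-out arrays, counts of genes called in each direction stayed within 1.5 times their reported values. At least 2-fold changes were more sensitive: a pseudocount of 64 left 183 genes at least 2-fold higher, against 291 without it, as its construction shrinks changes of dim genes, and leaving out controls 1, 4 and 5 raised those at least 2-fold lower to 391, against 259, whose cause was not tested. Leaving out 1 array at a time gave 814 to 886 genes higher, 641 to 697 lower, 276 to 301 at least 2-fold higher and 244 to 282 at least 2-fold lower. With the replicate number as a block (replicate block), 786 genes were higher, 604 lower, 290 at least 2-fold higher and 251 at least 2-fold lower. Deviations of same-numbered arrays from their group means correlated at 0.20, -0.01, -0.10, -0.11 and 0.03 for numbers 1 to 5. Within groups, deviations of arrays 2 and 3 correlated at 0.52 for controls and 0.35 for spermidine. Those of control 5 correlated at 0.43 with control 1 and 0.39 with control 4. Between groups, spermidine 2 and 3 correlated with controls 2 and 3 at -0.11 to -0.01. Such values cannot settle whether the numbers pair the samples, which was not tested. Of 188 named genes called, 155 stayed called under all alternatives that tested them and 33 lost the call under at least 1 of 23; none of the 188 changed sign. Without controls 2 and 3, 22 of them lost the call, and with controls 1, 4 and 5 left out 15 did and 39 moved by over 1.5 times; the cause was not tested. Signals near background limit the fold changes of dim genes, and the labels do not say whether arrays came from separate cultures.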

Other observations

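Some genes were too dim on most arrays to enter the test and yet differed between the groups. Of the 554 untested genes, 43 lay above background on every spermidine array and above every control array, and 13 lay above background on every control array and above every spermidine array. The genes named here were chosen after their values were seen. SPO11, which cuts DNA in meiosis, had 37.8, 53.5, 78.1, 77.2 and 42.0 with spermidine, against 2.81, 5.16, 1.46, 0.774 and 3.74 in controls. GIP1, a meiotic subunit of protein phosphatase 1, had 42.5, 46.2, 33.1, 39.7 and 42.9 with spermidine, against 4.83, 10, 13.1, 1.75 and 4.69 in controls. All control signals of both genes lay under the background level, and all spermidine signals above it.

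CTR3, a copper transporter, had 133, 136, 96.6, 161 and 155 with spermidine, against 17.0, 8.5, 16.3, 8.55 and 10.4 in controls. PHM6, a gene of the phosphate regulon, had 83.2, 59.0, 70.1, 61.7 and 45.3 with spermidine, against 1.72, 8.46, 9.98, 1.39 and 5.06 in controls. VEL1, a zinc-regulated gene of unknown function, had 32.5, 93.3, 102, 134 and 27.0 with spermidine, against 1.93, 3.71, 2.0, 3.79 and 6.44 in controls, with spermidine 1 and 5 below the other spermidine arrays. MET32, a DNA-binding regulator of sulfur genes, had 54.6, 54.3, 85.1, 374 and 66.9 with spermidine, against 7.63, 8.30, 8.93, 8.14 and 14.7 in controls, with spermidine 4 far above the others. ATG17, a scaffold protein of autophagy, had 67.5, 51.7, 68.5, 94.9 and 71.9 with spermidine, against 10.4, 21.6, 29.4, 14.5 and 17.4 in controls, some of which were above background.

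Among the 13 that were lower, STL1, a glycerol symporter, had 9.39, 10.9, 12.8, 9.39 and 4.67 with spermidine, against 24.8, 695, 600.3, 105 and 34.9 in controls. PRR2, a protein kinase, had 6.0, 1.98, 1.56, 4.99 and 8.95 with spermidine, against 59.1, 472, 455, 110.1 and 46.4 in controls. Controls 2 and 3 were the highest for both, and no spermidine signal of either reached the background level. SNR57, a small nucleolar RNA gene, had 9.66, 7.08, 9.73, 15.5 and 3.35 with spermidine, against 51.8, 20.9, 28.6, 72.9 and 67.6 in controls, controls 2 and 3 being the lowest of these. No test is given for the untested genes named in this section. Apart from HOP1, IME2, DMC1 and REC8, they were picked for the pattern described.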
